A study of Mus musculus with 16 samples.

Results

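Mouse bone marrow-derived macrophages (BMDMs) kept in DMEM, without any medium from tumor cells, were compared with and without ruxolitinib (Rux), a small molecule that inhibits the kinases JAK1 and JAK2. The comparison rests on 5 of the 16 RNA-sequencing samples of the study, chosen by their labels: 3 samples of DMEM + Rux and 2 of DMEM alone. All were WT macrophages from Balb/c mice of 8 weeks. The other samples were BMDMs given conditioned medium (CM) of 4T1 cells, a mouse mammary tumor line. Of these, 3 samples of CM and 3 of CM + Rux, labelled 0.5 μM and 4 h, serve below as a second set in which the same inhibitor was used. The study's methods give 4 h for isolating RNA after CM and for another experiment with ruxolitinib but no tumor factors, and the sources used here tie neither a dose nor a time to the libraries of DMEM + Rux. The labels do not say whether samples of a group came from separate mice or cultures, so the p-values measure the spread between samples. That spread was estimated within groups over all 16 samples of the study, since DMEM has only 2.

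Macrophages make small amounts of type I interferon even without infection. Interferon bound to its receptor activates JAK1 and TYK2, which phosphorylate STAT proteins such as STAT2, and these join IRF9 in a complex that binds the interferon-stimulated response element (ISRE) in promoters of antiviral genes. Receptors for interferon gamma, IL-6, IL-10, GM-CSF and IL-4 signal through JAKs as well, to STAT3, STAT5, STAT6 and others, while the M-CSF receptor that keeps macrophages alive is a tyrosine kinase of its own. Genes called lower with ruxolitinib in these unstimulated cells are called tonic below.

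Between 18449388 and 39049250 fragments were counted on genes in the 5 samples. Levels are CPM, the counts of a gene relative to the size of its library, scaled by relative log expression (RLE), and changes are log2 fold changes of DMEM + Rux against DMEM with their standard errors (SE). Macrophage markers were plain in every sample, with the 10 genes of that list summing to 43001 to 44428 CPM in DMEM and 40686 to 44675 CPM in DMEM + Rux, and 0 of 10 were called. Erythroid markers were at 0, and neutrophil markers summed to at most 0.558 CPM. T and NK cell markers reached at most 10.7 CPM, and B cell markers summed to 80.2 to 144 CPM in DMEM and 88.0 to 141 CPM in DMEM + Rux. Nearly all of the B cell sum was Ighm, with 78.9 and 143 CPM in DMEM. Cd79b, the only other B cell marker tested, had 1.21 and 1.06 CPM there. The dendritic list summed to 126 to 131 CPM in DMEM and 86.4 to 91.1 CPM in DMEM + Rux, with 1 of its 3 tested genes called, the interferon-induced gene Bst2. Nearly all of that sum was Bst2, with 124 and 129 CPM in DMEM and 85.3 to 89.2 CPM in DMEM + Rux. The part of these cell types in the results was not tested. In bulk RNA, fewer cells of a type and less RNA per cell cannot be told apart. The 2 DMEM samples differed from each other: replicate 2 was above replicate 1 in 99 of the 105 interferon genes described below, by a median of 1.41-fold against 1.004-fold over all genes, while replicate 1 was above replicate 2 in 40 of 46 NF-κB targets.

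With ruxolitinib a compact set of genes was lower, and no gene was called higher. By the quasi-likelihood test of edgeR, 120 of 12372 genes tested (0.97%) were called lower in DMEM + Rux, at an adjusted p under 0.05 and a log2 fold change below -0.5, and 0 (0.0%) were called higher. At an unadjusted p under 0.05 and the same fold change the counts were 246 lower (1.99%) and 50 higher (0.404%), and DESeq2 called 147 lower and 0 higher. All 120 had every DMEM + Rux sample below both DMEM samples, as did 8.84% of the 12372 genes, and 9.66% had every one above. The median change of the 120 was -1.67 on the log2 scale, against 0.01 over all genes. The level fell more than 2-fold in 90 of them, more than 4-fold in 46, more than 8-fold in 26 and more than 32-fold in 7. Together the 120 genes took 0.861% and 1.11% of counted fragments in the 2 DMEM samples and 0.387% to 0.395% with ruxolitinib. For 7509 genes (60.7% of those tested) the 95% interval of the change lay within 0.5 of 0 on the log2 scale, and for 10828 (87.5%) within 1.

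**Figure D1:**
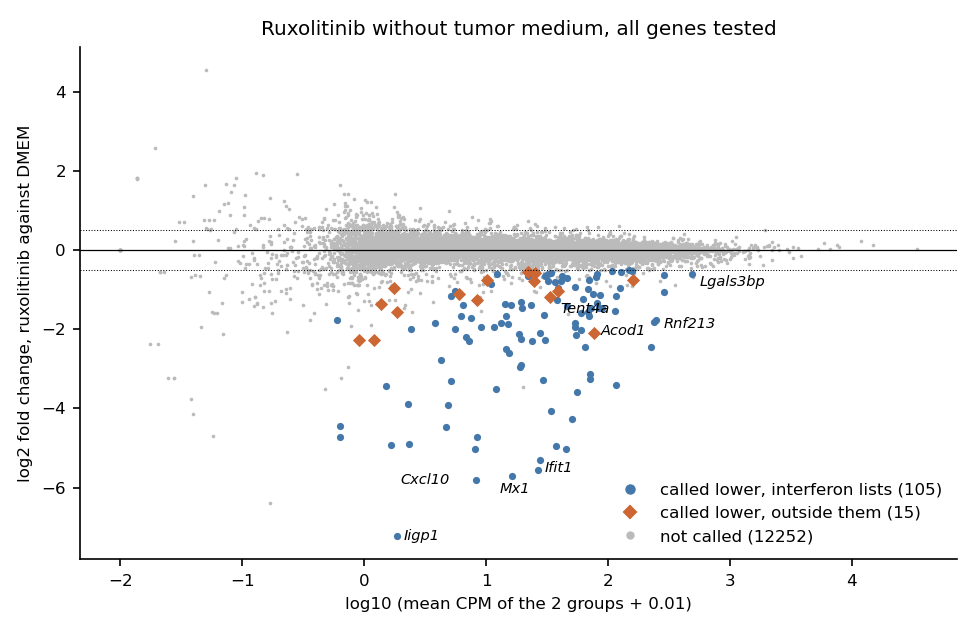
Log2 fold change of DMEM + Rux against DMEM (vertical) against the log10 of the mean CPM of both groups plus 0.01 (horizontal) for the 12372 genes tested, with dotted lines at 0.5 and -0.5. Blue points are the 105 genes called lower that stand in an interferon list, orange diamonds the 15 called lower outside them and grey points the genes not called. The called points all lie below 0 and reach from Iigp1 at -7.22 to genes near -0.5.

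Of the 120 genes, 105 (87.5%) belong to hand-written lists of interferon-responsive genes, which make up 3.04% of the genes tested. Read the other way, 105 of the 376 interferon genes tested (27.9%) were called lower and 271 were not, against 15 of 11996 genes outside the lists (0.125%). The lists were chosen with earlier results of these data known, so these shares describe the set and are no independent support. The median interferon gene among the 105 kept 28.5% of its DMEM level, and the median of the 15 others kept 45.5%. A core of 67 genes, 66 of them in the interferon lists, was called in each of 14 other fits of the model, total-count scaling among them. Leaving out DMEM replicate 2 had the largest effect: 110 genes were then called lower, of which 72 were among the 120. Leaving out any other sample kept 98 to 102 of them. In 6 of the 120 genes only the 2 DMEM samples of the whole series exceeded 1 CPM, so that these genes were tested only because they were high there and not without either DMEM sample: Iigp1, Ifit3b, Ifi214, Tnfsf10, A530040E14Rik and BC147527.

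The antiviral effectors formed the largest group, with 43 of 79 tested genes called lower and a list median of -0.95. Ifit1 (ENSMUSG00000034459, chromosome 19 from 34640871 to 34650009 of GRCm38), whose protein binds viral RNA that lacks the host cap, had 40.3 and 63.4 CPM in DMEM and 1.15, 1.05 and 1.13 CPM in DMEM + Rux. The treated samples lay close together and below both controls, and the log2 fold change was -5.55 (SE 0.64, adjusted p = 0.00019). Mx1 (ENSMUSG00000000386, chromosome 16 from 97447035 to 97462907), a dynamin-like GTPase that blocks influenza virus, had 24.03 and 39.9 CPM in DMEM and 0.462, 0.603 and 0.712 CPM with ruxolitinib. Here too the groups did not overlap, with a log2 fold change of -5.72 (SE 0.40, adjusted p = 4.0e-06). Rsad2, which encodes viperin, an enzyme that makes a chain-terminating nucleotide, fell from 60.1 and 84.4 CPM to between 1.72 and 3.27 CPM (log2 fold change -4.95).

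Neighbours and partners of these genes moved with them. Cmpk2, the gene beside Rsad2 on chromosome 12, fell by 4.07 on the log2 scale. In the Ifit family, which Ifit1 leads, the changes of Ifit2, Ifit3, Ifit3b, Ifit1bl1 and Ifit1bl2 were between -5.30 and -4.27. Ifit3 and Ifit3b are near-identical copies, so their counts rest on the fragments that differ between them. Mx2 was at -4.72 and Rtp4, which helps receptors reach the cell surface, at -5.01. Among the 2′-5′ oligoadenylate synthetases, which make the second messenger that activates RNase L, Oas3 fell from 99.3 and 155.7 CPM to 13.4 to 15.9 CPM (log2 fold change -3.13, SE 0.30, adjusted p = 2.9e-05), and Oasl2 by 3.25. Ifi44 fell from 160.0 and 266 CPM to 16.4 to 21.8 CPM. At the small end of the group were Lgals3bp, a secreted glycoprotein that kept 65.8% of its level, and Bst2 (tetherin), which holds budding virus at the cell surface and kept 69.2%. Without DMEM replicate 2 both calls were lost, at -0.48 (adjusted p = 0.143) for Lgals3bp and -0.50 (adjusted p = 0.0547) for Bst2. With replicate number as a block Bst2 was at -0.49, just inside the threshold of 0.5.

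**Figure D2:**
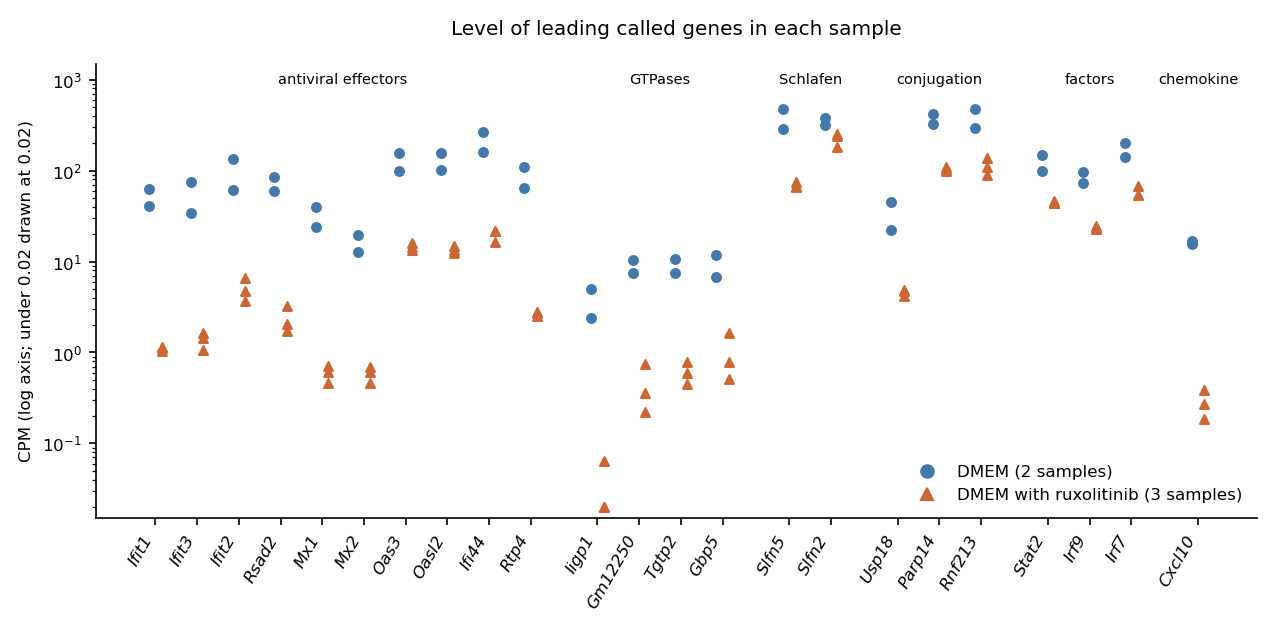
Level of 23 genes called lower in each of the 5 samples, in CPM on a log axis, grouped by role. Blue circles are the 2 DMEM samples and orange triangles the 3 DMEM + Rux samples, and values under 0.02 CPM are drawn at 0.02. In every gene shown the triangles lie below both circles, with the widest gaps in the Ifit and Mx genes, Iigp1 and Cxcl10 and the narrowest in Slfn2.

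The interferon-induced GTPases, which attack vacuoles that hold bacteria and parasites, were called lower in 16 of 21 tested genes, with a median of -1.86 and all 21 below 0. Iigp1 had 2.42 and 4.99 CPM in DMEM, and 0, 0 and 0.0648 CPM in DMEM + Rux. In counts these were 204 fragments in DMEM and 2 with ruxolitinib, a ratio after scaling of 170.4-fold (95% exact interval 46.6 to 1416, counting error only). Gm12250 fell from 7.48 and 10.3 CPM to 0.223 to 0.739 CPM, Tgtp2 by 3.92 on the log2 scale, and Gbp5 from 11.7 and 6.79 CPM to 0.514 to 1.62 CPM. Gbp5 was 1 of the 6 called interferon genes that were higher in DMEM replicate 1 than in replicate 2. The smallest change called in this list was that of Gm5431 (log2 fold change -1.26, adjusted p = 0.041). Without DMEM replicate 2 it was at -0.79 (adjusted p = 0.457), and the call was also lost without any 1 of the treated samples.

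Schlafen and PYHIN genes, which include regulators of immune cell growth and sensors of DNA, were called lower in 10 of 18 tested genes (median -1.59). Slfn5 fell from 283 and 475 CPM to 65.4 to 74.7 CPM (log2 fold change -2.45, SE 0.20, adjusted p = 8.5e-06). Slfn2, needed for the quiescence of T cells and monocytes, was the least changed member called, at 320 and 377 CPM in DMEM and 180 to 252 CPM with ruxolitinib. Its call was lost without either DMEM sample and without DMEM + Rux replicate 1 or 3, at adjusted p-values of 0.0571 to 0.305. Ifi214 had 68 fragments in DMEM and 4 with ruxolitinib, a ratio of 28.4-fold (95% exact interval 10.6 to 107).

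Of the genes for ISG15 conjugation, ADP-ribosylation and TRIM ubiquitin ligases, 14 of 25 were called lower (median -0.76) and all 25 were below 0. Usp18 removes ISG15 from proteins and also blocks the interferon receptor, so that it is an inhibitor of the pathway. It had 22.2 and 45.7 CPM in DMEM and 4.85, 4.69 and 4.14 CPM in DMEM + Rux (log2 fold change -2.89, SE 0.34, adjusted p = 0.00023). Parp14 had 322 and 414 CPM in DMEM and 100.1 to 110.7 CPM with ruxolitinib, a log2 fold change of -1.81 (SE 0.12). Trim30d, with 69 fragments in DMEM and 5 with ruxolitinib, fell 23.05-fold (95% exact interval 9.41 to 73.2), a call lost without DMEM replicate 2 or DMEM + Rux replicate 2 or 3 at adjusted p-values of 0.052 to 0.0584, and Trim21, a receptor for antibody inside the cell, kept 63.1%. In CPM, a scale on which long and abundant transcripts weigh more, the 5 largest falls among called genes were those of Slfn5, Rnf213, Parp14, Znfx1 and Lgals3bp. Rnf213 fell from 293 and 475 CPM to 90.2 to 136.6 CPM and Znfx1 from 332 and 449 CPM to 162 to 207 CPM.

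Nucleic acid sensors were called lower in 7 of 17 tested genes (median -0.29). Zbp1, which senses left-handed nucleic acids and starts necroptosis, fell most, from 19.4 and 30.4 CPM to 3.79 to 5.31 CPM (log2 fold change -2.49). Few genes of antigen presentation were called. In the list of MHC class I genes and their peptide-loading machinery, 3 of 29 tested genes were called lower: H2-T24 fell by 2.02 on the log2 scale, the peptide transporter Tap1 by 0.79 and H2-T23, the ligand of the NKG2A receptor of NK cells, by 0.51. Of these, Tap1 lost its call without DMEM replicate 1 (adjusted p = 0.0805) or replicate 2 (adjusted p = 0.0838). H2-T23 lost it without DMEM replicate 2 (-0.43, adjusted p = 0.143) or DMEM + Rux replicate 2 (-0.44), and was at -0.50 with replicate number as a block, just inside the threshold. The list median was -0.30. Of MHC class II genes 0 of 11 were called (median -0.10), which is near the 0.97% called lower over all genes. The interferon chemokines were split, with Cxcl10, which attracts CXCR3-bearing T cells, the only 1 of 7 tested genes called. Cxcl10 had 17.0 and 15.8 CPM in DMEM and 0.185, 0.268 and 0.389 CPM in DMEM + Rux (log2 fold change -5.81, SE 0.89, adjusted p = 0.0024). The remaining list of 159 other interferon-responsive genes had 8 called lower and a median of -0.20, with Tnfsf10 (TRAIL, a death ligand) at -3.88 the lowest of those called.

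The factors that carry the interferon signal were themselves in the set. Of the JAKs, STATs and their partner IRF9, 3 of 12 were called lower. Irf9 had 72.8 and 96.1 CPM in DMEM and 22.5, 23.6 and 24.3 CPM in DMEM + Rux (log2 fold change -1.84, SE 0.14, adjusted p = 7.6e-06). Stat2 fell from 98.5 and 149 CPM to 43.9 to 46.9 CPM, which is 36.4% of the DMEM level, with a log2 fold change of -1.46. In both genes the groups did not overlap. Irf7, which amplifies interferon transcription, fell by 1.55, and Nlrc5, the transactivator of MHC class I genes, by 0.59, so that 5 of 14 genes of the IRF and STAT list were called (median -0.30). Without DMEM replicate 2 the calls of Irf7 (-1.28, adjusted p = 0.0645) and Nlrc5 (-0.51, adjusted p = 0.0755) were lost.

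The kinases and the other STATs were not called. The log2 fold changes were -0.12 (95% interval -0.31 to 0.07) for Jak1, -0.34 (-0.61 to -0.07) for Jak2, -0.02 (-0.30 to 0.25) for Jak3 and -0.16 (-0.39 to 0.08) for Tyk2. For Jak2 the value was -0.58 without DMEM replicate 2 and -0.06 without replicate 1. Stat3 was at -0.19 (-0.61 to 0.23), Stat5a at 0.10 (-0.15 to 0.35), Stat5b at 0.09 (-0.10 to 0.29), Stat6 at -0.02 (-0.14 to 0.11) and Stat4, the least expressed, at -0.40. Of 26 cytokine receptor genes tested 0 were called (median -0.03), which is near the 0.97% called lower over all genes. The interferon receptor chains Ifnar1, Ifnar2, Ifngr1 and Ifngr2 had changes between -0.05 and 0.05, and Csf1r, the M-CSF receptor that these cells depend on, one of -0.21. The interferon genes themselves were hardly detected. Ifnb1 was below the filter, with 10 fragments over both DMEM samples and 2 over the 3 treated ones, and the interferon alpha genes listed had 0 fragments. Of 12 ligand genes tested, 0 were called, again near that share. Only 3 of the 12 averaged 1 CPM or more over these 5 samples, and Il6 and Csf3 had 0 fragments in all 5. The count therefore says little about the ligands below that level.

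Among feedback inhibitors, 2 of 19 were called lower, Usp18 and Socs1. Socs1, which binds and blocks JAKs, was low in all samples, at 0.887 and 0.941 CPM in DMEM and 0.185 to 0.291 CPM in DMEM + Rux (log2 fold change -1.76, SE 0.24, adjusted p = 0.00098). Its call was lost when the 5 DMEM samples were fitted alone. Socs3 had 17.3 CPM in DMEM replicate 1, 5.198 in replicate 2 and 4.02 to 5.96 in DMEM + Rux. Only DMEM replicate 1 stood apart, and the change of -1.22 (adjusted p = 0.69) became -0.09 without that sample. Cish and Socs2, classical targets of STAT5, were at most 0.356 CPM in every sample. Socs1 was also the sole gene called among 32 STAT5 targets (median -0.02) and among 16 STAT6 targets (median -0.00), and of 33 STAT3 targets 0 were called (median -0.13). Over all genes tested 0.97% were called lower, so in lists this small these counts say little about the targets.

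**Figure D3:**
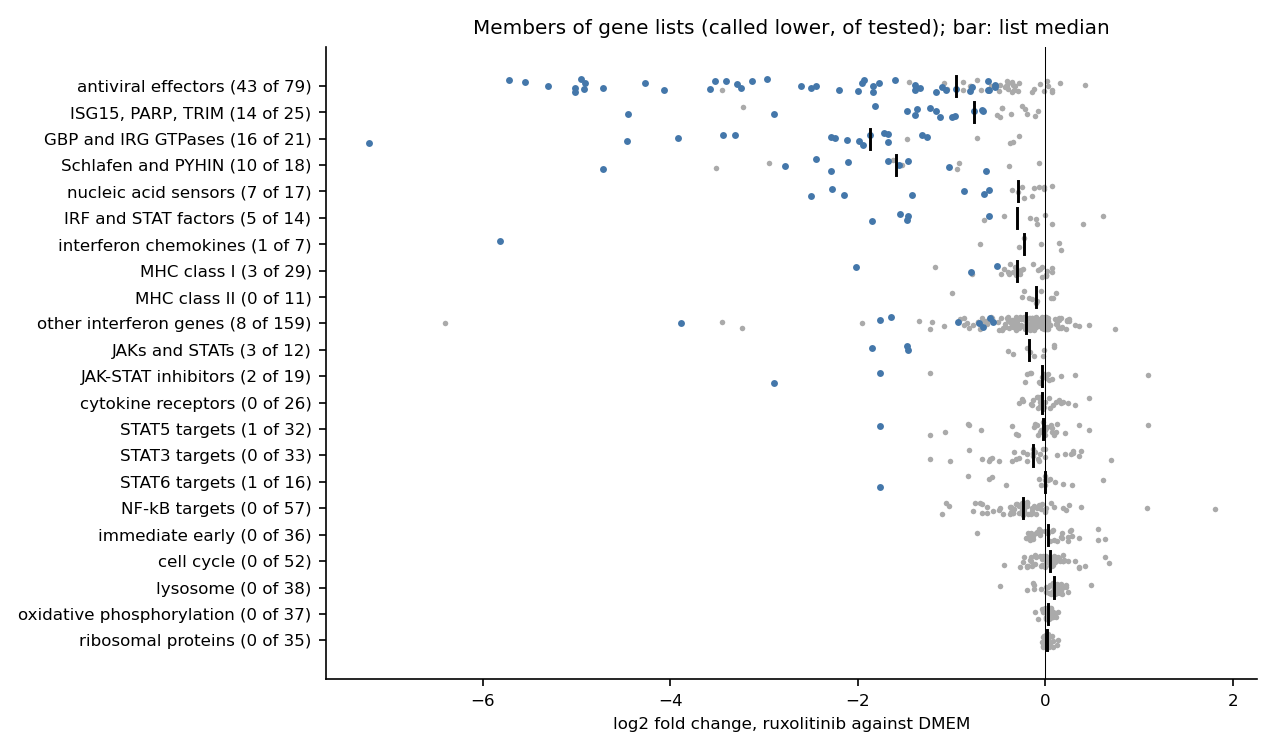
Log2 fold change of DMEM + Rux against DMEM for the tested members of 22 gene lists, 1 point per gene. Blue points were called lower, grey points were not called, and the black bar is the median of the list. The 4 lists from antiviral effectors to Schlafen and PYHIN genes have medians between -1.86 and -0.76, and the medians of the ribosomal, oxidative phosphorylation, cell cycle and lysosome lists lie between 0.03 and 0.09.

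Promoters of the tonic genes held the ISRE more often than other promoters. The 250 bases before each start in the RefSeq promoters of GRCm38.p6 were searched on both strands for the core of the ISRE, a pair of GAAA units with any 2 bases between them, and 93 of the 120 genes had a promoter in that table. Of these 93 genes, 37 (39.8%) held the element, against 311 of 9312 genes tested (3.34%) and 2.98% of all 32851 promoters. The share was 58.8% of genes that fell more than 4-fold, 42.9% of those that fell 2- to 4-fold and 8.33% of those that fell less. Interferon genes that were not called held it in 14.6%. The palindrome TTCNNNGAA, the letters of the GAS element bound by STAT dimers, was in 11.8% of the called genes and 7.15% of the genes tested. For each gene only the ISRE match nearest the start was kept, and ISRE matches within 15 bases of either end of the 250 were left out. The kept match lay within 100 bases of the start in 24 of the 33 windows extracted, at a median of 56 bases. Distances in uncalled genes were not taken, so closeness to the start was not tested. A match is a description of the letters and not of a bound site. The following stretches of 40 bases are those of genes on which the results turn, read along the gene's strand, with the element in capitals.

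Ifit1, chr19:34640789-34640828, plus strand: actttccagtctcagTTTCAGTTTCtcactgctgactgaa
Ifit3, chr19:34583392-34583431, plus strand: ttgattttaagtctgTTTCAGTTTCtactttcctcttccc
Rsad2, chr12:26456548-26456587, minus strand: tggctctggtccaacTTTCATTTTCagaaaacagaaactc
Cxcl10, chr5:92349078-92349117, minus strand: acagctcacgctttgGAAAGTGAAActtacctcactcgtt
Isg15, chr4:156200860-156200899, minus strand: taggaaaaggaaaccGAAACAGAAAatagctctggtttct
Oas3, chr5:120777710-120777749, minus strand: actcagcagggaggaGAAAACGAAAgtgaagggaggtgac
Gm12250, chr11:58183782-58183821, plus strand: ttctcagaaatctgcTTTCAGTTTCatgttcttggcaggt
Tgtp2, chr11:49064258-49064297, minus strand: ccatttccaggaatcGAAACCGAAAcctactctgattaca
Irgm2, chr11:58214898-58214937, plus strand: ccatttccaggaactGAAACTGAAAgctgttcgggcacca
Slfn5, chr11:82951932-82951971, plus strand: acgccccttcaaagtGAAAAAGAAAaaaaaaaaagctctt
Stat2, chr10:128270261-128270300, plus strand: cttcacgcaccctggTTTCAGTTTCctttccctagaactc
Socs1, chr16:10785589-10785628, minus strand: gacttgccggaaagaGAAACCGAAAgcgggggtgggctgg
Gm26797, chr9:122310951-122310990, minus strand: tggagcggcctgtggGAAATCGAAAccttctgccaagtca

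The first 6 lines are antiviral genes and a chemokine that fell by 3.13 to 5.81 on the log2 scale, and Isg15 among them fell by 3.52. The call of Isg15 was lost without DMEM replicate 2 and also without any 1 of the treated samples. Gm12250, Tgtp2 and Irgm2 are GTPases whose elements lie 36, 60 and 54 bases before the start. Stat2 and Socs1 belong to the signalling pathway itself. Gm26797 is a non-coding RNA in no interferon list and carries the element 37 bases before its start.

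The tonic genes were also clustered along the genome. Of the 120 genes, 59 (49.2%) had another called gene within 100 kb, against 319 of 12252 other genes tested (2.60%). They formed 21 clusters. All 6 genes tested of the Ifit cluster on chromosome 19 (34550694 to 34650009) were called, as were 5 of 6 in the Oas cluster on chromosome 5, 4 of 6 in the Slfn cluster on chromosome 11, 4 of 6 in the Trim30 and Trim34 cluster on chromosome 7 and 4 of 4 in the Gbp cluster on chromosome 3. These clusters are families of related genes that share sequence, so neighbours are not independent.

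Outside the interferon lists, 15 genes were called lower, of 11996 tested. The most stable was Tent4a (ENSMUSG00000034575, chromosome 13 from 69497959 to 69534617), a poly(A) polymerase that adds mixed tails to mRNA. It had 42.9 and 51.2 CPM in DMEM and 18.9, 23.9 and 18.4 CPM in DMEM + Rux, with no overlap and close replicates, and a log2 fold change of -1.197 (SE 0.13, adjusted p = 0.00013). Tent4a was the only 1 of the 15 called in all 14 other fits, with values of -1.06 to -1.33 when a sample was left out. Acod1, the enzyme that makes itaconate in activated macrophages, had a different shape. Its level was 203 CPM in DMEM replicate 1 but 43.0 in replicate 2, against 32.6, 23.3 and 31.7 CPM with ruxolitinib. The log2 fold change was -2.09 (SE 0.42, adjusted p = 0.025) with both controls and -0.57 (adjusted p = 1) without DMEM replicate 1. The call was also lost without any 1 of the treated samples, at adjusted p-values of 0.0822 to 0.138. This is the sample that was also high in NF-κB targets, and the part of that difference in the fall of Acod1 was not tested.

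Several of the 15 lie beside interferon genes or each other. Gm6548, a processed pseudogene that fell by 1.27, lies 608 bases from Eif2ak2 (PKR) on the same strand, and the log2 fold change of Eif2ak2 was -1.601. Gm43196 and Gm20559 lie 5339 bases apart on chromosome 6, with changes of -1.37 and -1.05. The called interferon gene Samd9l (-0.95) is in the same cluster. Adam33, a metalloprotease gene with 6.53 and 9.82 CPM in DMEM and 3.28 to 4.33 CPM with ruxolitinib, is 5406 bases from Siglec1, itself at -0.91 and not called (adjusted p = 0.74). 9130208D14Rik and Gm8995 are pseudogenes on chromosome 7, the first 63624 bases from the GTPase gene Gm4070, with changes of -0.76 each. A530040E14Rik is annotated as antisense to A530032D15Rik and C130026I21Rik on chromosome 1, and the counting used strand. It was at -2.28 and BC147527 at -2.27, both with at most 2.54 CPM in any of the 5 samples. Gm26797, a lincRNA on chromosome 9 with the ISRE shown above, fell from 2.19 and 3.40 CPM to 0.871 to 1.04 CPM.

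The remaining genes were Slco3a1, a transporter of organic anions (-0.96), Gm21188 (-0.78), the F-box gene Fbxw17 (-0.59) and Zup1, a peptidase for K63-linked ubiquitin chains (-0.55). By their annotation 8 of the 15 code for protein. Of the 9 with a RefSeq promoter, 2 held the ISRE letters, BC147527 and Gm26797. Without DMEM replicate 2, 13 of the 15 calls were lost, all but those of Tent4a and Acod1, and Fbxw17 moved to -0.31 (adjusted p = 0.426). Without DMEM replicate 1, 8 were lost: those of Acod1, Gm43196, Slco3a1, Gm21188, Gm8995, Zup1, BC147527 and A530040E14Rik. Leaving out a sample gave between 7 genes outside the lists, without DMEM + Rux replicate 3, and 33, without DMEM replicate 2. With replicate number as a block there were 30 such genes.

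**Figure D4:**
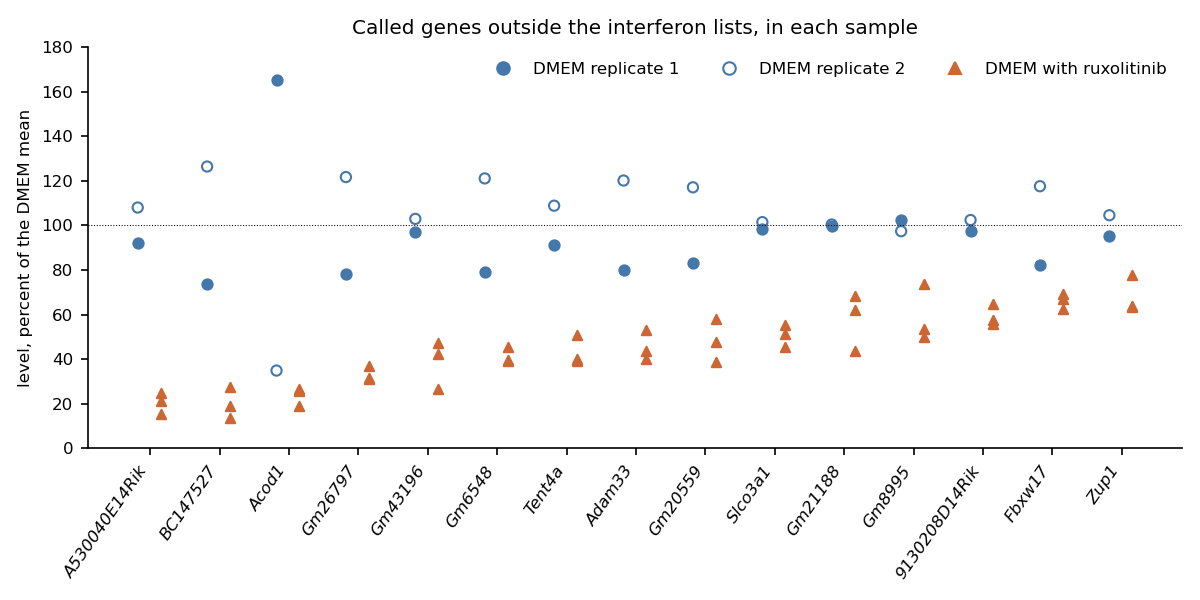
Level of the 15 called genes outside the interferon lists in each of the 5 samples, as a percent of the mean of both DMEM samples. Filled circles are DMEM replicate 1, open circles DMEM replicate 2 and triangles the 3 DMEM + Rux samples. Acod1 has its 2 DMEM samples far apart, at 203 and 43.0 CPM, while in the other genes both circles lie closer together and above all triangles.

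At the adjusted p alone 128 genes were lower (1.03%), so that 8 more passed it with falls under 0.5 on the log2 scale. They were Tdrd7, Zc3hav1 (ZAP, an antiviral protein that binds CpG-rich RNA), Etnk1, Psme2, Psme2b, Ddx24, Usp25 and the immunoproteasome subunit Psmb8, with changes between -0.34 and -0.49. Ddx24 had 107 and 109.5 CPM in DMEM and 77.4 to 78.4 CPM with ruxolitinib.

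Beyond interferon, 0 of 502 genes in the other lists that hold no interferon gene were called, with a median of -0.01. Among all genes outside the interferon lists 15 of 11996 (0.125%) were called, so a count of 0 here is near that share. Casp4, the sensor of intracellular LPS and also an interferon gene, was the 1 gene called of 25 in the inflammasome list (log2 fold change -0.71). Without DMEM replicate 1 it was at -0.54 (adjusted p = 0.508), and the call was also lost without DMEM + Rux replicate 1 or 3. All 37 subunits of oxidative phosphorylation and all 35 ribosomal proteins tested had 95% intervals within 0.5 of 0, with medians of 0.03 and 0.03. Medians were 0.05 for 52 cell cycle genes, -0.06 for 36 genes of cholesterol and fatty acid synthesis, -0.05 for 29 of glycolysis and hypoxia, 0.09 for 38 lysosomal genes, -0.08 for 21 NRF2 targets, -0.02 for 26 scavenger and efferocytosis genes and -0.07 for 24 lineage factors. In none of these was a gene called in either direction.

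The NF-κB targets were the list farthest from 0 among those without a call. Of 57 tested, 48 were below 0, with a median of -0.23, and 13 had an unadjusted p under 0.05, but 0 were called (0.97% of all genes were). In many of them DMEM replicate 1 stood apart. Cxcl2, a chemokine for neutrophils, had 49.8 CPM in DMEM replicate 1, 17.1 in replicate 2 and 14.2 to 19.0 in DMEM + Rux. Il1b had 182, 61.97 and 51.8 to 109 CPM in the same order, and Tnf 117, 57.3 and 47.6 to 58.4 CPM. Replicate 2 thus lay inside the range of the treated samples in these 3 genes, which were chosen after their values were seen. DMEM replicate 1 was the highest of the 5 samples in 37 of 46 NF-κB targets above 1 CPM. Without it the list median was 0.00 and 28 of 57 genes were below 0, and without replicate 2 it was -0.45 with 9 genes called. Stress genes and NRF2 targets were higher in DMEM replicate 1 than in replicate 2 as well, in 23 of 26 and 20 of 21 genes.

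No gene was called higher with ruxolitinib. The genes with the smallest p-values among those above 0.5 were Irak1bp1 (log2 fold change 0.79, adjusted p = 0.2), Rtn4rl1 (1.43, adjusted p = 0.24), Lyrm9 (0.59, adjusted p = 0.28), Gm15513 (0.63, adjusted p = 0.39) and Gm13391 (1.09, adjusted p = 0.42). Irak1bp1 had 1.596 and 2.62 CPM in DMEM and 3.19 to 4.05 CPM with ruxolitinib. Without DMEM replicate 2, 5 genes were called higher, Irak1bp1 among them.

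To see whether the tonic genes also responded to the inhibitor in tumor medium, the same 120 genes were read in CM + Rux against CM, which shares no sample with the comparison in DMEM. There 263 genes were called lower (2.13%) and 149 higher (1.2%), and with replicate number as a block 440 and 305. Of the 120, 71 were called lower in CM as well, 59.2% of the DMEM set and 27.0% of the CM set, and 0 were called higher. In CM 113 of the 120 were below 0, and their median was -0.99 against 0.01 for all genes. The overlap was made up of interferon genes: 69 of 105 (65.7%) were called in both media, and of the 15 others 2 were, Tent4a (-0.56 in CM) and Gm6548 (-1.27 in CM). Of the stable core of 67 genes, 51 (76.1%) were called in CM. Ifit3, Mx2 and Ifit2 fell by 4.06, 3.78 and 3.61 in CM, and Oas3 was at -2.91. Acod1 was at 0.49 in CM (adjusted p = 0.64).

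The difference between the effects in both media was tested as an interaction, which called 51 of 12372 genes (0.412%). Of the 120 genes, chosen here by the effect in DMEM, 8 were called and all had the smaller fall, or none, in CM. The largest called differences were those of Mx1 (difference 4.51, SE 0.51, adjusted p = 0.0029) and Gbp5 (3.72, SE 0.56, adjusted p = 0.012). Mx1 had 31.99 ± 11.3 CPM (SD, n = 2) in DMEM and 0.592 ± 0.126 (SD, n = 3) with ruxolitinib, but 9.31 ± 4.89 (SD, n = 3) in CM and 4.07 ± 0.842 (SD, n = 3) in CM + Rux. Gbp5 was 9.25 ± 3.47 CPM (SD, n = 2) in DMEM and 145 ± 8.52 (SD, n = 3) in CM, where ruxolitinib left it at 193 ± 26.6 (SD, n = 3). Helz2, Parp14, Ifi35, Socs1, Trim21 and 9130208D14Rik made up the rest. Ifit1 differed by 3.97 (adjusted p = 0.0502) and just missed the threshold. With replicate number as a block 444 genes were called, among them 31 of the 120 with all of these 8. Of the 31, 30 had the smaller fall, or none, in CM, Gm5431 being the exception. Ifit1 was among the 31, with a difference of 3.95 (adjusted p = 0.00085), as were Cxcl10, Rsad2, Acod1 and Tent4a. Leaving out a sample gave 5 to 36 genes called both lower in DMEM and in the interaction, 36 of them without DMEM replicate 2. Since the dose and time of these libraries are not stated, differences in dose and time between the media cannot be told apart from differences between the media themselves.

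**Figure D5:**
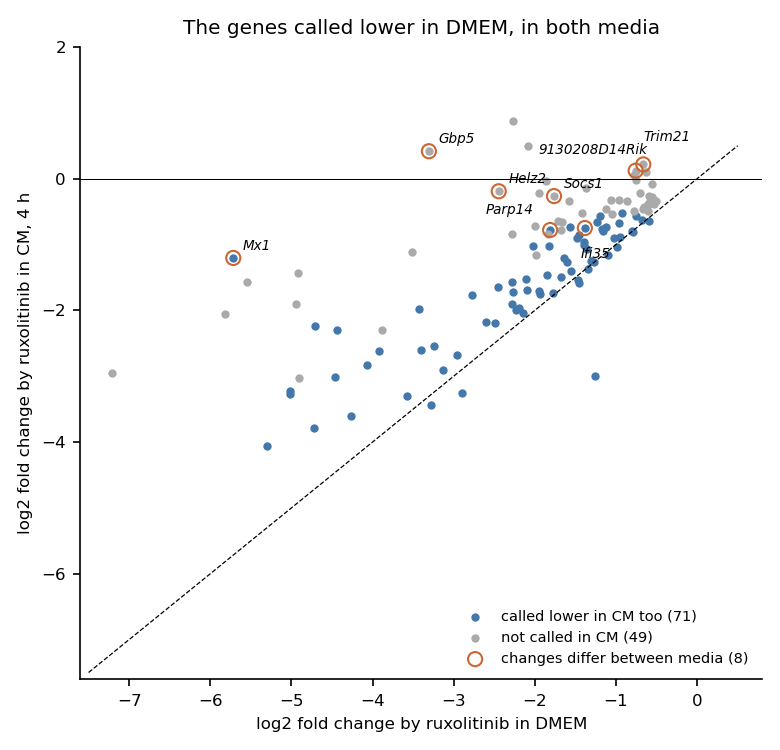
Log2 fold change by ruxolitinib in CM (vertical, 4 h label) against that in DMEM (horizontal) for the 120 genes called lower in DMEM, with a dashed line of equal change. Blue points (71) were called lower in CM too, grey points (49) were not, and orange rings mark the 8 genes whose changes differ between media. All 8 rings lie above the dashed line, and among them Mx1 and Gbp5 are the farthest from it.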

How the data were processed

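Total RNA of the BMDMs was sequenced from stranded libraries. Per the file headers and the submitters' processing notes, the authors trimmed reads with Trimmomatic 0.33, aligned them to GRCm38 with HISAT2 2.1.0 and counted fragments with featureCounts 1.6.2. Fragments with both ends mapped, on the reverse strand and with a mapping quality of at least 10, were kept, and those with several alignments or genes were left out, which lowers near-identical copies. The authors deposited unscaled counts of 55487 Ensembl genes, and symbols were found for 55141. Positions are those of the deposited table, and biotypes come from GENCODE vM21.

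From these counts, genes above 1 CPM in at least 2 of 16 samples (12372) were scaled by RLE and fitted in 1 model of all 6 groups with the quasi-likelihood test of edgeR 4.0.16 in R 4.3.3. The filter, scaling and thresholds are those of the study's methods. P-values were adjusted over all genes tested by the Benjamini-Hochberg method, and standard errors and 95% intervals follow from the F statistic. CPM carry RLE-scaled totals, and RLE moved the median change by -0.01 against total-count scaling. Intervals of count ratios are exact conditional ones. On simulated counts for DMEM + Rux against DMEM over 12372 genes, the fit recovered 86% of genes lowered by 0.75 and 98% of those lowered by 1.5 on the log2 scale, 50 genes each. It also called 11 unchanged genes. The changed genes were drawn from the better expressed ones and the samples independently of each other, so these shares do not cover genes of low counts.

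The members and gene lists were chosen with earlier results of these data known. The genes named are, among called genes averaging 1 CPM or more without overlap, the 15 largest falls, the 15 largest outside the interferon lists and the 10 largest in CPM, then the extremes of each list, the JAK-STAT genes, the 5 uncalled genes with the smallest p above 0.5 and the called genes with a called interaction. Isg15, Irgm2, Ifit1bl1, Ifit1bl2, Ifit3b, Eif2ak2, Siglec1, Gm4070 and A530040E14Rik were named after their values were seen. So were Samd9l, Ighm, Cd79b, the 8 small falls and the NF-κB genes. Promoters are RefSeq sequences matched by symbol or synonym, with the same chromosome required. Alternatives were TMM or total-count scaling, other filters, the likelihood ratio test, DESeq2 1.42.0, the DMEM samples alone, a replicate block, other thresholds and each sample left out. Some named genes are not reported here. The 2 h and IKK-16 samples entered the fit only. The labels do not say what a replicate number marks. In the 4 groups compared, deviations from the group means correlated at 0.172 to 0.621 in all 15 pairs of the same number. In 30 pairs of different numbers they correlated at -0.389 to 0.0318. Deviations within a group sum to 0, which pushes these values down, so they are no separate support. From the pairs of the same number, the numbers were read as a pairing. The blocked value is given where it changes the call of a named gene in DMEM or moves a count by over 1.5 times. Replicates differed by 13.2 to 32.0 in chi-square per degree of freedom, so none were copies. Figures and tables used Python 3.11.15 and matplotlib 3.10.9.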

Additional observations from a re-analysis of the deposited data

Results flagged for a closer look

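In 9 of the genes named, the effect of ruxolitinib differed between CM and DMEM by the interaction test of edgeR (difference as the log2 effect in CM minus that in DMEM). The difference was 4.51 for Mx1, 3.72 for Gbp5, 2.25 for Helz2, 1.499 for Socs1, 1.03 for Parp14, 0.88 for Trim21, 0.88 for 9130208D14Rik and 0.63 for Ifi35, all of them lower with ruxolitinib in DMEM. The same difference was 1.71 for Csf1 (adjusted p = 0.046), the gene of M-CSF, which was at -0.12 in DMEM and rose by 1.595 in CM.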

How the results depend on the processing

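The counts moved with the processing, most of all outside the interferon lists and in the interaction. With 120 genes lower, 15 of them outside the interferon lists, 71 also lower in CM and 8 with a called interaction as reported, no filter on low counts gave 180 lower, 43 outside and 97 in CM with 51 interactions, and the likelihood ratio test gave 157 lower and 1 higher, 33 outside and 31 interactions. DESeq2 gave 25 outside and 24 interactions. The 5 DMEM samples alone, which give no interaction, gave 90 lower and 5 outside. An adjusted p under 0.1 gave 16 interactions, and a log2 fold change beyond 1 gave 9 genes outside and 5 interactions. At an unadjusted p under 0.05 the counts were 246 lower, 50 higher, 103 outside, 113 in CM and 106 interactions. Leaving out a sample gave 103 to 110 lower, 0 to 5 higher, 7 to 33 outside, 52 to 69 in CM and 5 to 36 interactions, with the 5 higher, 33 outside, 52 in CM and 36 interactions without DMEM replicate 2. TMM scaling gave 118 lower and total-count scaling, added after the data were seen, 115. The cause of these shifts was not tested.

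A replicate block gave 154 lower (118 of the 120) and 1 higher, 30 outside and 43 interactions among its own lower genes, and with the 5 DMEM samples alone 162 lower and 3 higher, with 30 outside.

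Of 60 named genes that were called, 25 lost the call in at least 1 of 13 refits and none changed sign. Among 23 not called, Jak2, Irak1bp1 and Socs3 passed in 1 refit each, and 7 changed sign. Over the samples left out these ran from -0.1442 to 0.0616 for Jak3, -0.0437 to 0.0113 for Stat6, -0.2177 to 0.3437 for Socs2, -0.0744 to 0.0574 for Ifnar1, -0.0676 to 0.1817 for Ifngr1, -0.1424 to 0.0429 for Ifngr2 and -0.4506 to 0.0386 for Csf1. With the block Socs2 was at -0.0554, and Ifngr1 at -0.0105 in the 5 samples alone. With 2 controls that differ from each other, genes that are uneven between them, and low counts, limit what these samples can show.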
